A study of Mus musculus with 9 samples.

Results

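The genes described here encode enzymes and a transporter of gluconeogenesis, the making of glucose from lactate, glutamine, glycerol and other small molecules. They were listed by name for their role in the pathway: Pck1, Pck2, G6pc, Fbp1, Fbp2, Pcx, Slc37a4 and G6pc3. The rule uses no measured value, but earlier results of these data were known when it was made. All 8 were among the 24421 rows of the deposited table, and all 8 were among the 15583 genes tested. The liver and the proximal tubule of the kidney are the main tissues that release glucose made in this way, and in the kidney the pathway lies in the proximal tubule. Pyruvate carboxylase (Pcx) makes oxaloacetate from pyruvate in mitochondria, and a phosphoenolpyruvate carboxykinase, cytosolic (Pck1) or mitochondrial (Pck2), turns oxaloacetate into phosphoenolpyruvate. Fructose bisphosphatase (Fbp1, or Fbp2, which is best known from muscle) removes a phosphate further on, and glucose 6-phosphate is carried into the endoplasmic reticulum by Slc37a4 and hydrolysed to glucose there by G6pc, whereas G6pc3 is the form found in most tissues.

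Poly(A) RNA was sequenced from tdTomato-positive proximal tubular cells sorted from the kidney cortex of 9 mice. All mice were on the C57BL/6 strain and carried the SLC34a1GCE allele, in which the promoter of a proximal tubular phosphate transporter drives a tamoxifen-dependent Cre, and the R26tdTomato reporter allele. They received 5 injections of tamoxifen, 3 mg per mouse each, at 8 weeks of age. The 3 *db/m* mice were the non-diabetic controls, the 3 *db/db* mice lacked a working leptin receptor and were obese and diabetic, and the 3 *db/db*-dapa mice were *db/db* mice given the SGLT2 inhibitor dapagliflozin at 1.5 mg/kg per day in drinking water for 8 weeks and are called treated mice below. Labelling therefore depended on Slc34a1 expression at the time of tamoxifen, in every group alike. The 3 replicates of a group are separate mice.

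Levels are given in CPM, counts brought to a common library size, with values in the order of replicates 1, 2 and 3. Library totals ran from 4817721 to 6571572 counts in *db/m*, 2733349 to 7635669 in *db/db* and 6981225 to 9033123 in treated mice, and *db/db* replicate 1 was the smallest library. Calls used the thresholds of the study, an adjusted p under 0.1 together with an absolute log2 fold change over 1. The proximal tubule was the main source of the RNA: 12 of its markers summed to between 18576 and 28373 CPM per mouse, against 344 to 1635 CPM for 4 markers of the thick ascending limb and 19.9 to 106 CPM for 4 hepatocyte genes. No marker of these lists was at 0 in every mouse. Segment markers differed between the groups. The 7 markers of the S3 segment summed to 25256 to 36468 CPM in *db/m*, 1500 to 3375 CPM in *db/db* and 3652 to 7468 CPM in treated mice. Such sums are weighted to the most abundant markers. Of the 7, 4 passed an adjusted p of 0.1 as lower in *db/db* and 2 as lower in treated than in *db/m* mice. Over all genes tested, 1.7% and 1.31% passed in either direction. For these S3 markers the log2 fold change was above 0 for 1 of 7 in *db/db* and 0 of 7 in treated mice, each against *db/m*. The 5 markers of the S1 and S2 segments summed to 6755 to 7628 CPM in *db/m*, 8413 to 10791 CPM in *db/db* and 9038 to 9244 CPM in treated mice, and 0 of 5 passed in either of these comparisons. In bulk RNA, fewer cells of a type and less RNA per cell cannot be told apart. The part of the segment markers in the results below was not tested.

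The promoters of 4 members are printed because these were the members whose treated and *db/m* mice did not overlap, as described further on. Each is the stretch of 250 bases before the start of the gene in RefSeq on GRCm38.p6, read 5′ to 3′ on the gene's own strand, and that start can differ from the gene's boundary in GENCODE. Capitals mark matches, on either strand, to the letters of short elements known from the control of gluconeogenesis: the cyclic AMP response element (CRE) TGACGTCA, its variant TTACGTCA and its half-site TGACG, the FOXO site GTAAACA and its insulin-response variant GTTTTG and the TATA box TATAAA. The windows are Pck1 at chr2:173152823-173153072 on the plus strand, G6pc at chr11:101367466-101367715 on the plus strand, Pck2 at chr14:55540016-55540265 on the plus strand and Fbp1 at chr13:62888283-62888532 on the minus strand.
Pck1: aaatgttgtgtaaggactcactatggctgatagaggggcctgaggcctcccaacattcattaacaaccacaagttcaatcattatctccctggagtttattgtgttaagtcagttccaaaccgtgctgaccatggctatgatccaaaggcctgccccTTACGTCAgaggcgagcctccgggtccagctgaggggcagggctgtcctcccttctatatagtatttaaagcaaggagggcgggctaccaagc
G6pc: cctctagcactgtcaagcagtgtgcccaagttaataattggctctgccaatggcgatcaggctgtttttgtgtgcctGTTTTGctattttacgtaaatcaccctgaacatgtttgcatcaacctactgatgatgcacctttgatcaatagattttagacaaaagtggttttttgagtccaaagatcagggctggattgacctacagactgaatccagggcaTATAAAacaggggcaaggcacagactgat
Pck2: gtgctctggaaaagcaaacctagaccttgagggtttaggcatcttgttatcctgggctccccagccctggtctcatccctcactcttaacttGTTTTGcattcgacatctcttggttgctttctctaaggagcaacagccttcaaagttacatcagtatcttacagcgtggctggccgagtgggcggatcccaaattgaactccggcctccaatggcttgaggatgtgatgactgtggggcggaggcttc
Fbp1: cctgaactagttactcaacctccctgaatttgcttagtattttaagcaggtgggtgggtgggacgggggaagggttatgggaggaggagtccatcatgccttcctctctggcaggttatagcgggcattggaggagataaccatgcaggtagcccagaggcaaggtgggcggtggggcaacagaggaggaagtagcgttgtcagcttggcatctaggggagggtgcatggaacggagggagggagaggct

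The Pck1 window held TTACGTCA from 93 to 86 bases before the start, overlapping the CRE half-site on the other strand. These letters of the CRE variant were found in 0.447% of 32851 windows of the same length before RefSeq gene starts, and in 1 of the 11 windows of the 8 members. The G6pc window held a TATA box from 29 to 24 and the insulin-response variant from 173 to 168 bases before the start. In all windows, the TATA box letters were in 12.4%, GTTTTG in 13.1% and TGACG in 17.8%. The Pck2 window held GTTTTG only, from 158 to 153 bases before the start, and the Fbp1 window held none of the letters searched. The whole CRE, found in 1.55% of windows, and GTAAACA, found in 3.17%, were in 0 of the 11 windows. Among the members not printed, Fbp2 held TGACG and GTTTTG, Slc37a4 held TGACG and TATAAA, and Pcx and G6pc3 held none. These matches describe letters in a window and no binding was measured.

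The members differed widely in level. Pck1 lies on chromosome 2 from 173153048 to 173159273 (GRCm38, plus strand) and was among the most abundant transcripts of these cells, with rank 4 of 15581 genes by mean CPM. It took between 0.323 and 1.03% of all counts in a mouse. Levels of different genes were compared per kilobase of the longest coding transcript, which may not be the one in use. On that scale, Pck1 had a mean of 2338 CPM per kilobase over the 9 mice, followed by Fbp1 at 1136, G6pc at 224, Pcx at 182, Slc37a4 at 176, G6pc3 at 36.5, Fbp2 at 18.8 and Pck2 at 2.70 CPM per kilobase. Pck1 was above Fbp1 in 9 of 9 mice, with a ratio of their levels per kilobase between 1.26 and 3.60. Fbp1 was above G6pc in 9 of 9 mice, by 3.80-fold to 9.17-fold. The 3 genes in the middle were not ordered beyond their spread: G6pc was above Pcx in 7 of 9 mice and Pcx above Slc37a4 in 5 of 9. Below them, Slc37a4 was above G6pc3, G6pc3 above Fbp2 and Fbp2 above Pck2 in 9 of 9 mice each. In each pair, the member best known from liver and kidney (Pck1, Fbp1, G6pc) was thus above its partner (Pck2, Fbp2, G6pc3) in all 9 mice.

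**Figure D1:**
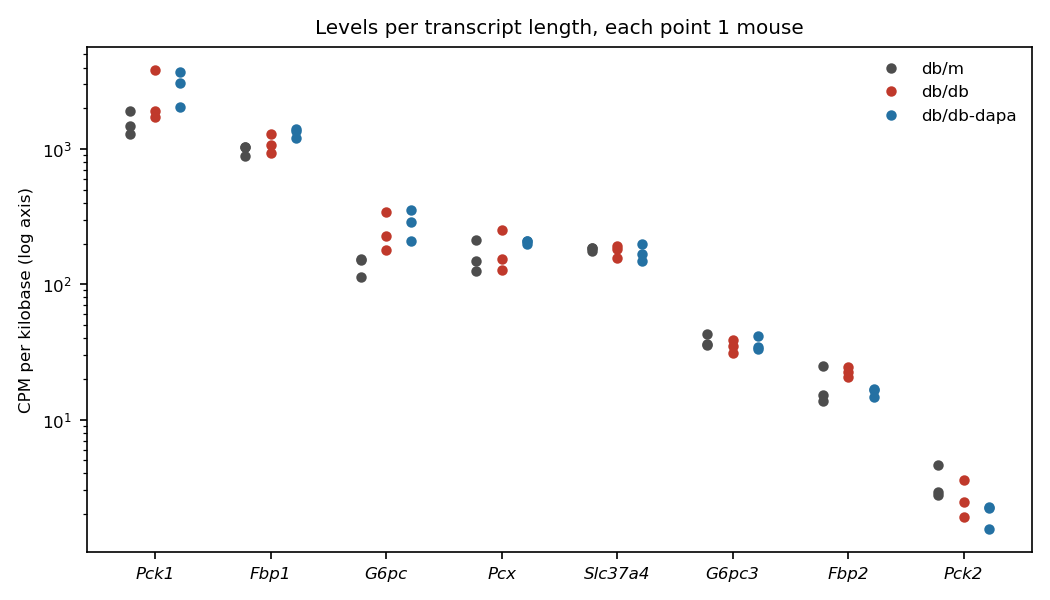
Level of each gluconeogenesis gene in CPM per kilobase of its longest coding transcript, on a log axis; each point is 1 mouse, coloured by group. Pck1 and Fbp1 lie highest, G6pc, Pcx and Slc37a4 lie together, and Pck2 lies lowest in every group.

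Of the 8 members, 0 were called in any of the 3 comparisons. The background was 1.26% of the 15583 genes called between *db/db* and *db/m*, 0% for treated against untreated *db/db* and 1.05% for treated against *db/m* mice, so that a count of 0 among 8 genes lay near it. At an adjusted p under 0.1 alone, the members' count was again 0 in each, against 1.7%, 0% and 1.31% of all genes. G6pc came nearest, for which the quasi-likelihood test of edgeR, adjusted by Benjamini-Hochberg, gave an adjusted p of 0.122 in treated against *db/m* mice. As a median over the 8 members, the log2 fold change was 0.15 between *db/db* and *db/m*, 0.13 for treated against untreated *db/db* and 0.14 for treated against *db/m* mice, beside 0.020, -0.0093 and -0.022 over all genes tested. When 1 mouse was left out, the first ran from -0.026 (without *db/db* replicate 3) to 0.26, the second from 0.026 (without *db/db* replicate 1) to 0.13 and the third from 0.10 to 0.22 (without *db/m* replicate 2). Any pair of these comparisons shares a group of mice, so their values are not independent of each other.

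The comparison of untreated *db/db* with *db/m* mice addressed diabetes together with the leptin receptor genotype and obesity, which cannot be told apart here. Of the 8 members, 1 (G6pc) had no overlap between *db/db* and *db/m* mice, where 16.4% of all genes had none (8.28% in the same direction, higher), and the same single member had an unadjusted p under 0.05, where 13.7% of all genes did. Among *db/db* mice, treated against untreated addressed dapagliflozin within diabetes, together with the lower blood glucose that the paper reports for treated mice. Here 1 of 8 members (Fbp2) had no overlap against 10.2% of all genes (5.29% lower, as Fbp2 was), and 0 of 8 had an unadjusted p under 0.05 against 5.19%. Both counts lay near the background. Treated against *db/m* mice joined the drug with the leptin receptor genotype, obesity and diabetes, which cannot be told apart here. In that comparison, 4 of 8 members had no overlap (Pck1, G6pc and Fbp1 higher, Pck2 lower) against 28.1% of all genes, 14.4% higher and 13.7% lower. The same 4 had an unadjusted p under 0.05 by edgeR, against 18.2% of all genes, 9.77% higher and 8.39% lower. Markers of other cells also moved between these groups: those of the thick ascending limb summed to 801 to 1635 CPM in *db/m* and 428 to 534 CPM in treated mice, with 0 of 4 log2 fold changes above 0, and 5 principal cell markers had a median of -1.21, although 0 of either list passed. In *db/db* mice, 2 of 5 heat shock genes passed as lower than in *db/m* mice, where 1.7% of all genes passed in either direction. The heat shock sums were 3421 to 5200 CPM in *db/m*, 2038 to 2877 CPM in *db/db* and 3312 to 6726 CPM in treated mice. The part of these markers in the members' values was not tested.

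**Figure D2:**
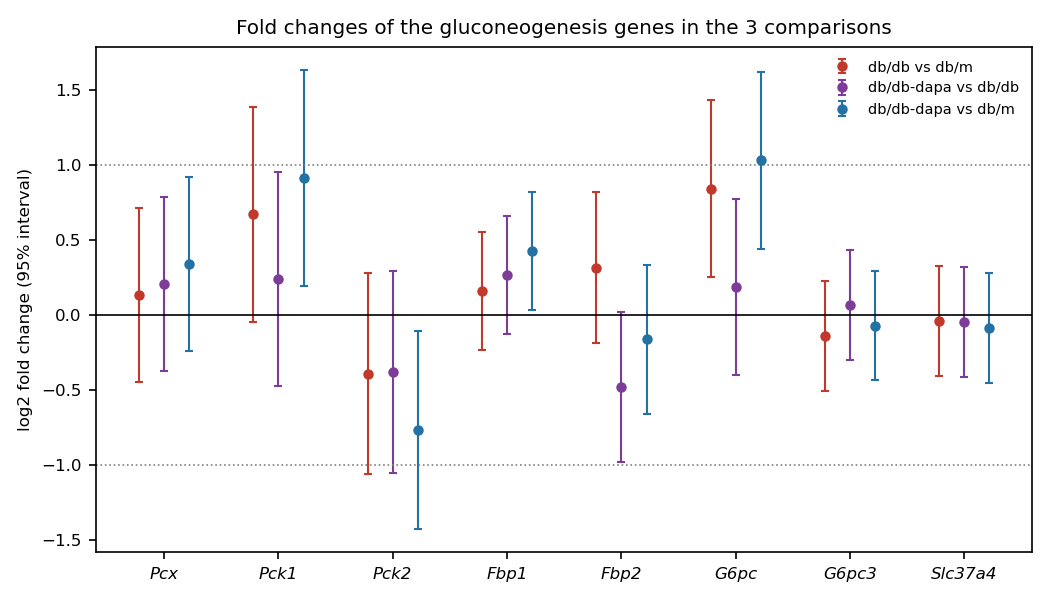
Log2 fold change of each gluconeogenesis gene in the 3 comparisons, with 95% intervals from edgeR's fit to all 9 mice; dotted lines mark a log2 fold change of 1 in each direction. In the comparison of *db/db*-dapa (treated) with *db/m* mice the intervals of Pck1, G6pc and Fbp1 lie above 0 and that of Pck2 below it, before adjustment for the number of genes, and 0 members passed after it.

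G6pc, the glucose-6-phosphatase of liver and kidney that completes glucose production, lies on chromosome 11 from 101367561 to 101377903 on the plus strand. It was at 365, 272 and 371 CPM in *db/m*, 547, 435 and 825 CPM in *db/db* and 502, 697 and 861 CPM in treated mice. Each of the 6 *db/db* mice, treated or not, was above each *db/m* mouse, while the treated and untreated *db/db* mice overlapped. The means were 336 ± 55.7, 602 ± 201 and 687 ± 180 CPM (SD, n = 3 each). The log2 fold change was 0.84 between *db/db* and *db/m* mice (standard error 0.27, 95% interval 0.25 to 1.44, edgeR adjusted p = 0.205). For treated against *db/m* mice it was 1.03 (standard error 0.27, 95% interval 0.44 to 1.63, edgeR adjusted p = 0.122), which placed G6pc at rank 343 of 15583 genes by p. Among *db/db* mice, treated against untreated, it was 0.19 (standard error 0.27, 95% interval -0.40 to 0.77, edgeR adjusted p = 0.902). G6pc passed both thresholds for treated against *db/m* mice in 6 of 21 alternative fits, among them DESeq2 (adjusted p = 0.0130) and edgeR on the 2 groups alone (adjusted p = 0.0340), and over all 21 the adjusted p ran from 0.00450 to 0.446. The value between *db/db* and *db/m* mice was 0.54 without *db/db* replicate 3, the highest of its group, and that of treated against untreated mice ran from 0.00068 without *db/db* replicate 2 to 0.50 without replicate 3.

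Slc37a4, the transporter that supplies G6pc with glucose 6-phosphate, lies on chromosome 9 from 44396852 to 44402968 on the plus strand and varied least of the 8 members, by 1.32-fold between the lowest and the highest mouse. It was at 412, 433 and 431 CPM in *db/m*, 424, 365 and 451 CPM in *db/db* and 462, 351 and 391 CPM in treated mice, and all groups overlapped. The log2 fold changes were -0.040, -0.044 and -0.084 for *db/db* against *db/m*, treated against untreated *db/db* and treated against *db/m* mice. Their 95% intervals were -0.41 to 0.33, -0.41 to 0.32 and -0.45 to 0.28, which bound a difference at less than 0.5 on the log2 scale in each direction. The sign of all 3 turned in some alternative fits, and the first was 0.070 with total count scaling.

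G6pc3, the glucose-6-phosphatase of most tissues, lies on chromosome 11 from 102189620 to 102194081 on the plus strand. It was at 67.2, 56.5 and 56.4 CPM in *db/m*, 60.5, 55.0 and 48.6 CPM in *db/db* and 65.4, 54.0 and 52.5 CPM in treated mice. The groups overlapped in all comparisons. The log2 fold changes were -0.14, 0.070 and -0.070 in the same order, with edgeR adjusted p = 0.751, 0.943 and 0.844 and intervals from -0.51 at the lowest to 0.44 at the highest.

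Pck1, the cytosolic carboxykinase and a known target of cyclic AMP, glucocorticoid and acid-base signals, was at 5104, 3938 and 3456 CPM in *db/m*, 4595, 10219 and 5105 CPM in *db/db* and 5402, 9924 and 8245 CPM in treated mice. The treated mice were all above the *db/m* mice, but the lowest of them exceeded the highest *db/m* mouse by little, and 1 *db/db* mouse, replicate 2, was at about the level of the highest treated mouse. The means were 4166 ± 847, 6640 ± 3110 and 7857 ± 2286 CPM (SD, n = 3 each). The log2 fold change was 0.92 for treated against *db/m* mice (standard error 0.33, 95% interval 0.19 to 1.64, edgeR adjusted p = 0.212). Between *db/db* and *db/m* mice it was 0.67 (standard error 0.33, 95% interval -0.045 to 1.39, edgeR adjusted p = 0.394) and was 0.22 when *db/db* replicate 2 was left out. Among *db/db* mice, treated against untreated, it was 0.24 (95% interval -0.47 to 0.96, edgeR adjusted p = 0.894), with 0.70 without the same mouse and 0.036 without *db/db* replicate 1. In treated against *db/m* mice its adjusted p was under 0.1 in 3 of 21 alternative fits, with a range from 0.0214 to 0.547.

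Pck2, the mitochondrial carboxykinase, lies on chromosome 14 from 55540266 to 55551242 on the plus strand. It was the lowest of the members, with 49 to 96 counts per mouse. It was at 13.4, 12.9 and 21.3 CPM in *db/m*, 16.7, 11.4 and 8.84 CPM in *db/db* and 10.5, 10.2 and 7.13 CPM in treated mice. The 3 treated mice were below the 3 *db/m* mice, and the *db/db* mice overlapped both. The log2 fold change was -0.77 for treated against *db/m* mice (standard error 0.30, 95% interval -1.43 to -0.11, edgeR adjusted p = 0.235), -0.39 between *db/db* and *db/m* and -0.38 for treated against untreated *db/db* mice. The second of these ran from -0.65 (*db/db* replicate 1 left out) to -0.14 (*db/m* replicate 3 left out), and the last from -0.56 to -0.12 (*db/db* replicate 3 or 1 left out). Without *db/m* replicate 3, the first was -0.51. Its log2 CPM had a Pearson's r of -0.76 with the library total over the 9 mice (Spearman's rho -0.92), a description with no test, and each treated library was larger than each *db/m* library. Among the members higher without overlap in treated than in *db/m* mice, r was 0.72 for Fbp1 (rho 0.77), 0.39 for G6pc (0.62) and 0.38 for Pck1 (0.50). For the other members r was 0.60 (Pcx), -0.12 (Slc37a4), -0.29 (G6pc3) and -0.44 (Fbp2). The part of depth in these values was not tested. Pck2 was highest of its group in *db/m* replicate 3 and *db/db* replicate 1. There the thick ascending limb markers summed to 1635 and 1073 CPM, also the highest of each group. Among treated mice that sum was highest in replicate 3, at 534 CPM, where Pck2 was lowest. Whether such cells had a part in the Pck2 values was not tested. An antisense gene, Gm10876, overlaps Pck2, and whether the counting used strand was not stated in the sources used here, so reads of both may be joined.

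Fbp1, the fructose bisphosphatase of liver and kidney, lies on chromosome 13 from 62864753 to 62888282 on the minus strand. It was at 1310, 1526 and 1530 CPM in *db/m*, 1377, 1579 and 1922 CPM in *db/db* and 1790, 1996 and 2089 CPM in treated mice. The treated mice were all above the *db/m* mice and overlapped the *db/db* mice. The means were 1455 ± 126, 1626 ± 275 and 1958 ± 153 CPM (SD, n = 3 each). The log2 fold change for treated against *db/m* mice was 0.43 (standard error 0.18, 95% interval 0.032 to 0.82, edgeR adjusted p = 0.254). It was 0.16 between *db/db* and *db/m* mice and 0.27 for treated against untreated *db/db* mice, with edgeR adjusted p = 0.733 and 0.854. Without *db/db* replicate 3, the highest of its group, they were 0.015 and 0.42, and without *db/db* replicate 1, the lowest, 0.27 and 0.16. The 12 proximal tubule markers had sums of 18576 to 19349 CPM in *db/m*, 18830 to 26908 CPM in *db/db* and 22248 to 28373 CPM in treated mice. Of these markers, 11 of 12 had a log2 fold change above 0 for treated against *db/m* mice, although 0 of 12 passed an adjusted p of 0.1. Their median was 0.47, beside -0.022 over all genes tested. Their part in the values of Fbp1, Pck1 and G6pc was not tested.

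Fbp2 lies beside Fbp1 on chromosome 13, from 62836877 to 62858422 on the same strand. It was at 20.5, 33.9 and 18.4 CPM in *db/m*, 33.0, 27.8 and 30.2 CPM in *db/db* and 22.6, 22.7 and 19.9 CPM in treated mice. It was the only member whose treated and untreated *db/db* mice did not overlap, and *db/m* replicate 2 was above the highest *db/db* mouse. The log2 fold change was -0.48 for treated against untreated *db/db* mice (standard error 0.23, 95% interval -0.98 to 0.022, edgeR adjusted p = 0.854), 0.32 between *db/db* and *db/m* and -0.16 for treated against *db/m* mice. Both comparisons with *db/m* mice moved without replicate 2 of that group, to 0.63 and 0.16, so that the sign of the latter turned, and without its replicate 3, to 0.15 and -0.33. In *db/m* replicate 2 both Fbp1 and Fbp2 had counts that were not whole, so reads shared between the paralogs may have been divided there.

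Pcx, which starts the pathway from pyruvate and also feeds the citric acid cycle, lies on chromosome 19 from 4510472 to 4621752 on the plus strand. It was at 522, 619 and 883 CPM in *db/m*, 530, 641 and 1049 CPM in *db/db* and 828, 872 and 862 CPM in treated mice. All groups overlapped, and the treated mice lay closest together, with a coefficient of variation of 2.68% against 27.7% in *db/m* and 37.0% in *db/db* mice. The spread itself was not tested. The log2 fold changes were 0.14, 0.21 and 0.34 for *db/db* against *db/m*, treated against untreated *db/db* and treated against *db/m* mice, with edgeR adjusted p = 0.854, 0.892 and 0.489. The first was -0.21 when *db/db* replicate 3 was left out and 0.37 without *db/m* replicate 3, the second ran from 0.015 without *db/db* replicate 1 to 0.56 without replicate 3, and the third from 0.19 without *db/m* replicate 1 to 0.58 without replicate 3. Lrfn4 overlaps Pcx on the opposite strand.

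**Figure D3:**
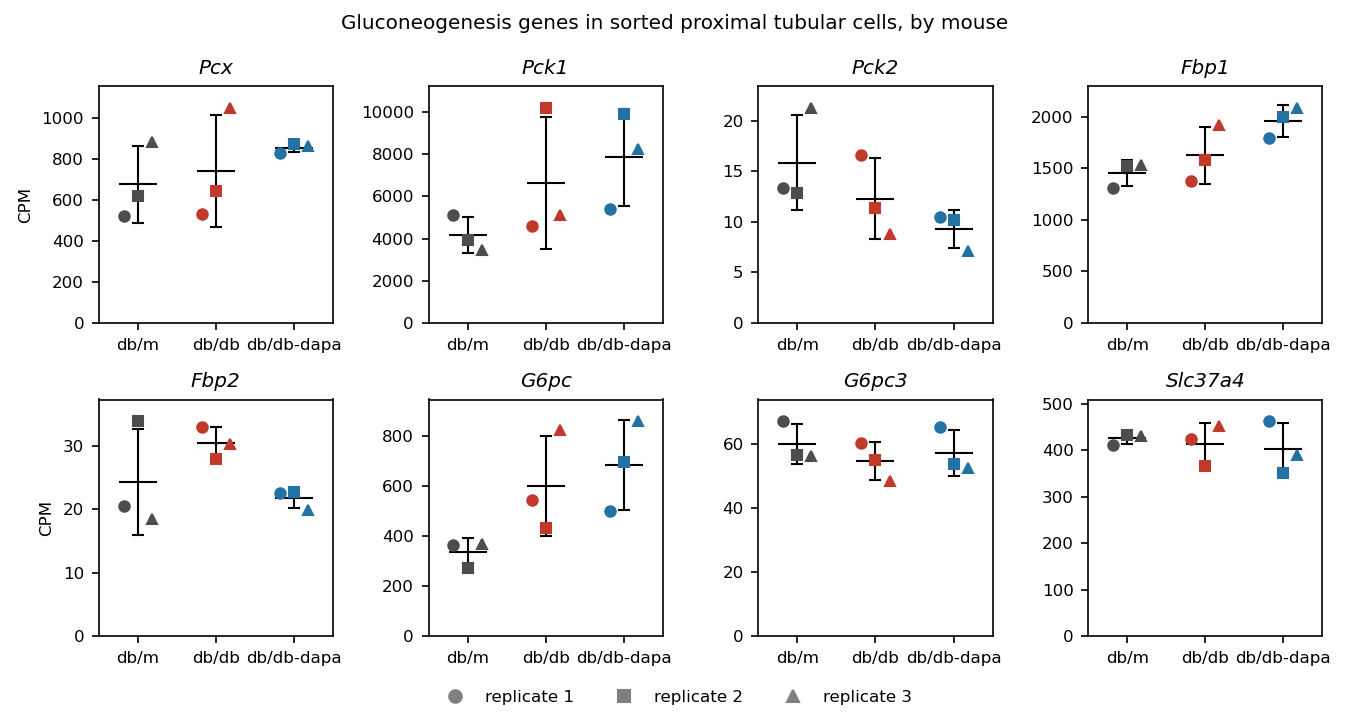
CPM of each gluconeogenesis gene in each of the 9 mice, with the mean and SD of each group of 3; the symbols give the replicate number and each axis starts at 0. G6pc is higher in all 6 *db/db* and treated mice than in the *db/m* mice, and Slc37a4 and G6pc3 overlap in all groups.

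Ratios of members within a library do not depend on how the libraries were scaled. The log2 ratio of Pck1 to Pck2 counts was 8.06 ± 0.64 in *db/m*, 9.03 ± 0.86 in *db/db* and 9.70 ± 0.62 in treated mice (SD, n = 3 each). It was higher in each treated mouse than in each *db/m* mouse, by 1.65 or 3.13-fold (exact permutation test, two-sided, p = 0.1, adjusted p = 0.3 over 15 tests). Pck1 was higher and Pck2 lower without overlap in these same mice, so this separation followed from the values above and is no separate result. With 3 mice against 3, the smallest p this exact permutation test allows is 0.1. The ratio of G6pc to G6pc3 was 2.47 ± 0.23, 3.41 ± 0.59 and 3.56 ± 0.56 in the same order. It was higher without overlap in *db/db* than in *db/m* mice, by 0.94, and in treated than in *db/m* mice, by 1.08, each with an exact permutation p = 0.1 and an adjusted p = 0.3.

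The ratio of Slc37a4 to G6pc, which compares the transporter with the enzyme it supplies, was 0.36 ± 0.28 in *db/m*, -0.50 ± 0.33 in *db/db* and -0.75 ± 0.55 in treated mice. It was lower without overlap in both *db/db* groups than in *db/m* mice, by -0.85 and -1.10 (exact permutation p = 0.1 and adjusted p = 0.3 each). This ratio and that of G6pc to G6pc3 share the G6pc counts. Slc37a4 and G6pc3 overlapped in all comparisons, so these ratios largely restate the G6pc values given above and are not separate results. Treated and untreated *db/db* mice overlapped in all 5 ratios. The ratio of Pcx to Pck1 and that of Fbp1 to Pck1 overlapped in every comparison, with exact permutation p-values between 0.2 and 1. As means these were -2.64, -3.13 and -3.16 for Pcx to Pck1 and -1.50, -1.95 and -1.96 for Fbp1 to Pck1 in the 3 groups, *db/m* first and treated last.

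**Figure D4:**
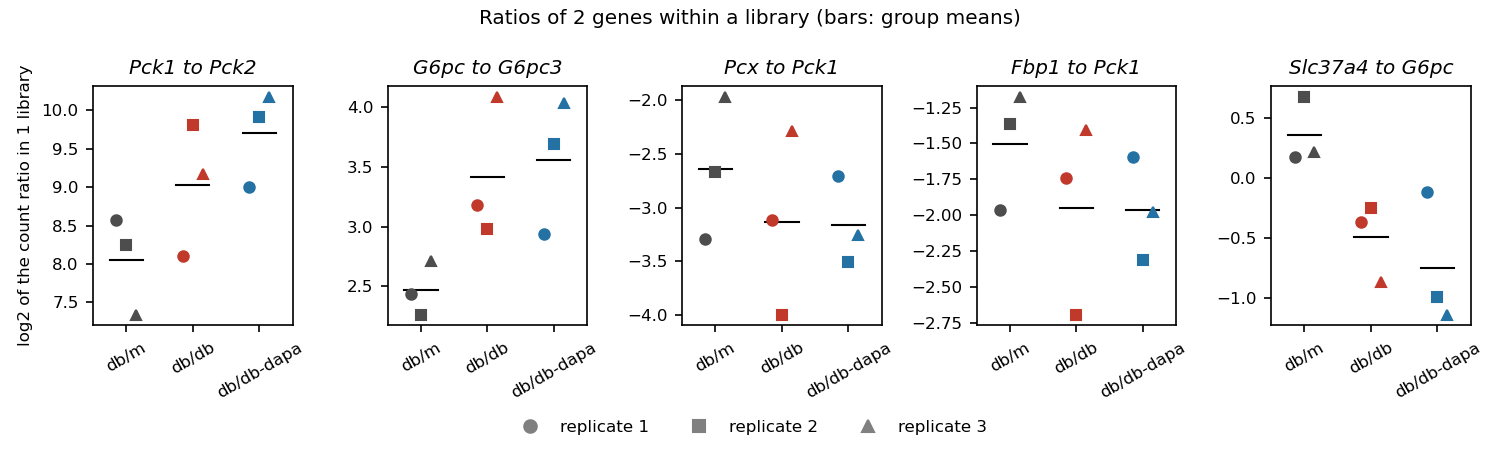
Log2 ratio of the counts of 2 genes within each library, by mouse and group, with bars at the group means; symbols give the replicate number and the axes do not start at 0. The ratio of Slc37a4 to G6pc lies lower, and that of G6pc to G6pc3 higher, in both *db/db* groups than in *db/m* mice. These ratios share the G6pc counts and are not independent of each other.

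Across the 9 mice the members did not form a single block. As a description, over points that share groups and depth, the log2 CPM of Fbp1 and Pcx had a Pearson's r of 0.83, and 0.86 after the group means were removed. For G6pc and Fbp1 it was 0.76, and 0.56 after removal. Pck1 and Slc37a4 ran opposite, at -0.82 and -0.90 after removal, and so did Fbp1 and G6pc3, at -0.64 and -0.93. Pck1 and G6pc, often described together, had an r of 0.51 that came to -0.11 once the group means were removed. Of the 9133 genes with a mean of at least 10 CPM, those most like Pck1 over the 9 mice were Ypel2 (Pearson's r 0.98), Idh3a (0.93), which encodes a subunit of isocitrate dehydrogenase, and Gpsm2 (0.92). The 3 most like G6pc were Vwce (0.97), Lin54 (0.97) and Elovl6 (0.96), a fatty acid elongase. Those most like Fbp1 were Parva (0.99), Idh1 (0.97), the cytosolic isocitrate dehydrogenase, and Agxt2 (0.97). For Pck2 they were Amn (0.98), Esrra (0.97) and 2210016L21Rik (0.97), and for Pcx they were G630090E17Rik (0.97), C1rl (0.97) and Gpr146 (0.95). Fbp2 was most like Anks1 (0.92), Bmi1 (0.87) and Npl (0.87), Slc37a4 most like Tec (0.91), Lrrk1 (0.87) and Nfe2l2 (0.84), and G6pc3 most like Mapkapk5 (0.92), Ifnar2 (0.91) and Bcap31 (0.91). These were picked as the highest of 9133 values each and carry no test.

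The reversible steps shared by gluconeogenesis and glycolysis were covered by 6 genes (Eno1, Pgam1, Pgk1, Gapdh, Tpi1 and Gpi1), of which 0 passed an adjusted p of 0.1 in any comparison. Their median log2 fold changes were -0.087, 0.075 and 0.00048, in the order of the comparisons used above. With 1 mouse left out they ran from -0.16 to -0.016, from 0.023 to 0.14 and from -0.037 to 0.057, and the first was 0.022 with total count scaling. The highest value was that of the enolase Eno1, at 438, 415 and 467 CPM in *db/m*, 451, 616 and 702 CPM in *db/db* and 675, 716 and 594 CPM in treated mice. Its treated mice were all above its *db/m* mice, and the log2 fold change was 0.59 (standard error 0.19, edgeR adjusted p = 0.184). The lowest was that of the triose phosphate isomerase Tpi1, at -0.36 between *db/db* and *db/m* mice (edgeR adjusted p = 0.419) and -0.31 for treated against *db/m* mice. Between treated and untreated *db/db* mice the values ran from -0.088 for Gapdh to 0.21 for Pgk1.

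The glycolytic steps that oppose the pathway (hexokinases, phosphofructokinases and pyruvate kinases) were covered by 12 genes. Of these, 1 (Pklr) rose in *db/db* mice against *db/m* mice and in treated mice against *db/m* mice, where 1.7% and 1.31% of all genes had an adjusted p under 0.1. Pklr encodes the pyruvate kinase of liver, kidney cortex and red cells, which turns phosphoenolpyruvate, the product of Pck1, back into pyruvate. It was at 27.7, 43.1 and 24.7 CPM in *db/m*, 58.8, 68.2 and 97.8 CPM in *db/db* and 67.9, 96.4 and 86.4 CPM in treated mice. All 6 *db/db* mice were above the 3 *db/m* mice. The log2 fold changes were 1.24 (standard error 0.26, edgeR adjusted p = 0.0581) and 1.39 (standard error 0.26, edgeR adjusted p = 0.0512). The adjusted p of Pklr was under 0.1 in 17 of 21 alternative fits in each of these comparisons, with a range of 0.00138 to 0.258 in the first and 0.000222 to 0.278 in the second. It was not under 0.1 without *db/m* replicate 1 or 3 in both, without *db/db* replicate 2 and in the fit of the 2 groups alone in the first, and without treated replicate 2 or 3 in the second. Without *db/db* replicate 3 the first log2 fold change was 0.99, under the study's threshold of size. Among *db/db* mice, treated against untreated, 0 of 12 passed, and the values ran from -2.59 for Hk3, which was at most 1.40 CPM in any mouse, to 0.38 for Pfkfb4. The medians of the list were 0.21, -0.087 and -0.16. These moved to 0.025 (*db/db* replicate 1 left out) or 0.33 (*db/m* replicate 1 left out), to -0.26 without *db/db* replicate 2, and to -0.032 without *db/m* replicate 3, and the second was 0.0060 when limma weighted the mice.

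Of 26 genes that supply substrate (lactate, glutamine, glycerol and amino acid enzymes and carriers), 1 fell in *db/db* against *db/m* mice, 0 passed for treated against untreated *db/db* mice, and 1 rose in treated against *db/m* mice. Over all genes, 1.7%, 0% and 1.31% had an adjusted p under 0.1 in these comparisons. The one that fell was Ldhd, the D-lactate dehydrogenase, at 872, 892 and 806 CPM in *db/m*, 255, 253 and 512 CPM in *db/db* and 472, 467 and 641 CPM in treated mice. All *db/db* mice were below all *db/m* mice, and the log2 fold change was -1.33 (standard error 0.27, edgeR adjusted p = 0.0493). Ldhd passed in 15 of 21 alternative fits, with adjusted p from 0.000269 to 0.183, and not in the fit of the 2 groups alone, without any 1 of the *db/m* mice, or without *db/db* replicate 1 or 2. The one that rose was Slc38a3, which carries glutamine into proximal tubular cells for ammonia and glucose production. It was at 30.4, 17.6 and 29.1 CPM in *db/m*, 9.86, 60.8 and 93.3 CPM in *db/db* and 123, 160 and 206 CPM in treated mice. Each treated mouse was above each of the other 6 mice. The log2 fold change was 2.67 against *db/m* mice (standard error 0.57, edgeR adjusted p = 0.0731) and 1.55 against *db/db* mice (standard error 0.54, edgeR adjusted p = 0.854). In the first of these, 13 of 21 alternative fits gave an adjusted p under 0.1, with a range of 0.000220 to 0.287. The adjusted p was not under 0.1 in limma's fits of log2(CPM + 1) and log2(CPM + 0.1), without any 1 of the *db/m* mice, without *db/db* replicate 2 or without treated replicate 2 or 3. The lactate carrier Slc5a12 had the lowest value for treated against untreated *db/db* mice, at -0.29 (edgeR adjusted p = 0.864). The medians of the list were 0.14, 0.084 and 0.30. Without *db/db* replicate 3 the first was 0.0094 and the second 0.25, and without *db/db* replicate 1 they were 0.24 and 0.025. The third ran from 0.21 to 0.37 when 1 mouse was left out.

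Of the 4 glucose transporters, 0 passed in any comparison, with medians of 0.46, -0.13 and 0.51. The second turned to 0.051 without *db/db* replicate 1, and the first was 0.26 in limma's fit of log2(CPM + 1) and 0.29 with a replicate block. Slc2a2, through which glucose leaves the early proximal tubule on the blood side, was at 197, 267 and 139 CPM in *db/m*, 328, 274 and 403 CPM in *db/db* and 267, 349 and 372 CPM in treated mice. Its *db/db* mice did not overlap its *db/m* mice, and the log2 fold change was 0.74 (standard error 0.25, edgeR adjusted p = 0.230). Slc5a1, the SGLT1 transporter, was at 77.6, 67.5 and 69.3 CPM in *db/m*, 28.9, 77.4 and 171 CPM in *db/db* and 133, 131 and 147 CPM in treated mice. Its treated mice were all above its *db/m* mice, and its *db/db* mice spread across the range of both. The log2 fold changes of treated mice were 0.94 against *db/m* mice (edgeR adjusted p = 0.283) and 0.55 against *db/db* mice (edgeR adjusted p = 0.854). Slc2a1 was lowest of the list in each comparison, at 0.10, -0.27 and -0.17.

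Of 24 regulators, 0 passed an edgeR adjusted p of 0.1 in any of the 3 comparisons, and 2, 2 and 6 had an unadjusted p under 0.05, where the shares over all genes were 13.7%, 5.19% and 18.2%. Their medians were 0.24, 0.068 and 0.23, beside 0.020, -0.0093 and -0.022 over all genes tested. Of the 24 values, 18, 15 and 15 were above 0. The first median was -0.0017 without *db/db* replicate 3 and -0.0028 when limma weighted the mice, the second ran from -0.025 without *db/db* replicate 1 to 0.20 without replicate 3, and the third from 0.14 without treated replicate 3 to 0.33. Cebpa, a transcription factor of liver and fat, had the highest value for treated against untreated *db/db* mice. Its mean was 25.4 ± 3.47 CPM in *db/m*, 26.6 ± 4.67 CPM in *db/db* and 40.4 ± 7.38 CPM in treated mice (SD, n = 3 each), with single treated mice at 36.1, 49.0 and 36.3 CPM. The treated mice were all above the other 6, and the log2 fold change was 0.59 (standard error 0.20, edgeR adjusted p = 0.854). Irs2, an adaptor of the insulin receptor, had the highest value for treated against *db/m* mice, at 1.04 with overlap (standard error 0.47, edgeR adjusted p = 0.274). Pth1r, the parathyroid hormone receptor, had the lowest, at -0.33, and its treated mice were all below its *db/m* mice (edgeR adjusted p = 0.357). Sirt1 had the lowest value between *db/db* and *db/m* mice, at -0.46 (edgeR adjusted p = 0.558). Creb3l3 had the highest value between *db/db* and *db/m* mice, at 1.29, and the lowest for treated against untreated *db/db* mice, at -1.61, but was at most 1.39 CPM in any mouse (edgeR adjusted p = 0.414 and 0.854).

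**Figure D5:**
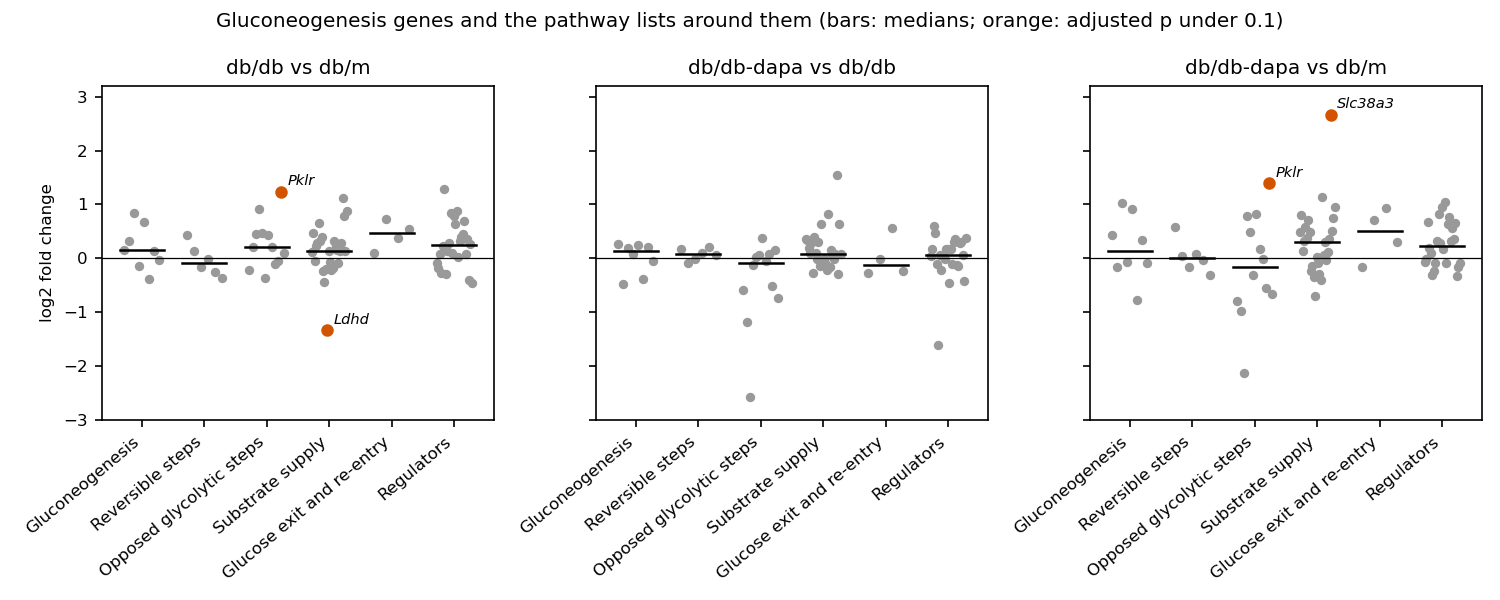
Log2 fold change of each tested gene of the gluconeogenesis list and of the lists around it, in the 3 comparisons; bars mark medians and orange points are genes with an adjusted p under 0.1. Orange points are Pklr and Ldhd between *db/db* and *db/m* mice and Pklr and Slc38a3 for treated against *db/m* mice, with 0 for treated against untreated *db/db* mice and 0 among the 8 gluconeogenesis genes.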

How the data were processed

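Sorted proximal tubular cells of 3 *db/m* mice, 3 *db/db* mice and 3 treated (*db/db*-dapa) mice were compared, with groups and replicate numbers from the sample labels. The submitters' processing notes name TopHat2 2.0.13, Bowtie2 2.2.3, SAMtools 0.1.19 and Cufflinks 2.2.1, and the build mm10. The values deposited by the authors, 1 per gene and mouse, are estimated counts, although the table is named as FPKM: 90.9% are whole within 1e-06 and the sums differ between mice. How these counts were made was not given in the sources used here. They were rounded, scaled by TMM and tested over all 9 mice in edgeR 4.0.16 by its quasi-likelihood test (earlier form, R 4.3.3), for genes at 0.3 CPM or more in at least 2 mice, with Benjamini-Hochberg adjustment over 15583 genes. Standard errors came from the F value and 95% intervals from the t distribution with each gene's degrees of freedom. DESeq2 1.42.0 and limma 3.58.1 were alternatives, and the fits were tested on simulated data. For ratios, exact permutation tests (two-sided) were used.

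The members and lists were chosen with earlier results of these data known. Beside the 8 members, the text names list genes with an adjusted p under 0.1, otherwise the highest and lowest of a list in a comparison (some are not printed), and the 3 genes most like each member by Pearson's r of log2(CPM + 1), on which low genes differ by less than their true fold. Positions are from GENCODE vM21 on GRCm38 and promoters from RefSeq on GRCm38.p6, in which all 8 members matched. Gk was looked up under its older symbol Gyk. Some genes of the lists and a promoter motif are not reported here.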

Additional observations from a re-analysis of the deposited data

How the results depend on the processing

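Each of 24 log2 fold changes (8 members in 3 comparisons) was computed under 21 alternatives, of which the newer form of edgeR was chosen after seeing the data. Those of Pck1, Pck2, G6pc and Fbp1 kept their sign throughout, and 12 values of the other 4 members changed sign. Between *db/db* and *db/m* mice, Pcx ran from -0.21 to 0.37 and Slc37a4 from -0.12 to 0.042 when 1 mouse was left out, and Slc37a4 was 0.070 with total count scaling, a setting that moved the median of all genes to 0.13. Among *db/db* mice, treated against untreated, Slc37a4 ran from -0.15 to 0.052 and G6pc3 from -0.027 to 0.15 when 1 mouse was left out, and G6pc3 was -0.032 when limma weighted the mice. For treated against *db/m* mice, leaving out 1 mouse gave -0.33 to 0.16 for Fbp2, -0.19 to 0.0089 for Slc37a4 and -0.17 to 0.020 for G6pc3. Of the ratios, those that changed sign did so for treated against untreated *db/db* mice when 1 mouse was left out, from -0.099 to 0.48 for G6pc to G6pc3, from -0.46 to 0.40 for Pcx to Pck1 and from -0.39 to 0.25 for Fbp1 to Pck1. The cause was not tested.

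The members called stayed at 0 in all fits of the first 2 comparisons. For treated against *db/m* mice G6pc made the count 1 with DESeq2, with limma weighting the mice, without a filter on low values and in the fit of the 2 groups alone, and from 0 to 1 when 1 mouse was left out (1 without treated replicate 1 and without *db/db* replicate 3). Genes called between *db/db* and *db/m* mice were 197 (86 higher, 111 lower), 234 with total count scaling (141 higher, 93 lower), 363 with DESeq2, 115 with the 2 groups alone, and 85 to 230 when 1 mouse was left out, moving over 1.5 times without *db/m* replicate 1 (85), *db/m* replicate 3 (126) or *db/db* replicate 2 (113). Among *db/db* mice, treated against untreated, they were 0 with edgeR (809 at an unadjusted p under 0.05), 13 with DESeq2, 449 with limma weighting the mice and 0 to 272 when 1 mouse was left out, with 272 without *db/db* replicate 3 and 1 without treated replicate 2. For treated against *db/m* mice they were 164, 507 with DESeq2, 1619 with limma weighting the mice, 275 without a filter, 630 with the 2 groups alone and 14 to 664 when 1 mouse was left out, lower without any 1 *db/m* mouse or treated replicate 2 (14) or 3 (41) and higher without *db/db* replicate 3 (664) or treated replicate 1 (264). List genes with an adjusted p under 0.1 (lists of 6, 12, 26, 4 and 24 genes) numbered 2, 0 and 2 in the 3 comparisons. Over all 15583 genes the same rule, without the threshold of size, gave 265, 0 and 204. In the first they were 4 with DESeq2, 0 with the 2 groups alone and 0 to 2 when 1 mouse was left out. Of all genes, 797, 117 and 86 to 302 passed in these fits. In the second they were 9 with limma weighting the mice and 0 to 3 when 1 mouse was left out, where 899 and 0 to 419 of all genes passed. In the third they were 7 with DESeq2, 1 with limma on log2 CPM, 31 with limma weighting the mice and 4 without a filter. They were 13 with the 2 groups alone and 0 to 15 when 1 mouse was left out. Of all genes, 996 passed there with DESeq2, and 185 and 176 with limma on log2(CPM + 1) and log2(CPM + 0.1). With limma weighting the mice 4883 passed, with the 2 groups alone 1492 and without a filter 368 of 18076. When 1 mouse was left out, 14 to 1651 of all genes passed.

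Whether the replicate numbers pair the mice could not be settled, since deviations within a group of 3 depend on each other. Of 9 pairs with the same number, 3 had a correlation of deviations over 0.1 (range -0.32 to 0.56), against 7 of 18 pairs with different numbers. The highest values were 0.56 between *db/db* and treated replicate 3 and 0.40 between *db/db* and treated replicate 1. With the replicate number as a block, 185, 0 and 166 genes were called. Having 3 mice per group, and 49 counts in 1 mouse for Pck2, limit what could be seen, as do the wide intervals of Pck1 and G6pc.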
